A study of Mus musculus with 12 samples.

Results

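Purine salvage and breakdown were followed through 10 genes in splenic B lymphocytes of mice, chosen by symbol (Hprt, Aprt, Adk, Ada, Pnp, Ampd2, Ampd3, Gda, Xdh and Nt5e). They are 10 of the 24982 genes listed for every library, and each of the 10 was found once. The study sequenced polyadenylated RNA from 12 libraries, 4 labelled biological replicates in each of 3 groups, all from mice 6 weeks old. WT mice were C57BL/J6 and carried no transgene. Eμ-Myc mice carry a Myc transgene that the immunoglobulin heavy chain enhancer Eμ drives in the B lineage, so Myc is raised from early B cell development onward and the mice go on to develop lymphoma. Eμ-Myc; PRPS2 KO mice carry the same transgene and lack PRPS2, so both Myc groups share the transgene and no group lacks PRPS2 alone. The labels do not say whether animals were pooled, and the p-values below set group differences against the spread between these libraries. The study asked which genes Myc changes in B cells, and how loss of PRPS2 acts on that programme.

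Cells obtain purine nucleotides by building them from small precursors or by salvaging free bases and nucleosides. PRPS2 makes phosphoribosyl pyrophosphate, the sugar donor that both routes use; HPRT and APRT attach it to free bases, adenosine kinase phosphorylates adenosine, and the AMP deaminases turn AMP into IMP. In the other direction, the ectoenzyme CD73 (Nt5e) releases adenosine from extracellular AMP, adenosine deaminase and purine nucleoside phosphorylase take nucleosides down to bases, and guanine deaminase and xanthine dehydrogenase lead on to urate. Inherited lack of ADA or PNP causes immunodeficiency, because lymphocytes are sensitive to the deoxynucleosides that then build up.

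Values were taken as mean read coverage per base of each gene, divided by a scaling factor per library and called scaled coverage here. That they are per base was inferred from their label as coverage and their decimals, since the counting step is not stated. The label also holds the word counts, so the per-base reading is an assumption. Only if this holds can levels of different genes be set side by side, as in the ranks and ratios below. Fold changes are on the log2(scaled coverage + 0.5) scale, with the standard error, and a gene was called where its limma adjusted p was under 0.05. Where a gene is said to be x-fold higher or lower in a group, x is the ratio of the group means of scaled coverage. That ratio can differ from the log2 fold change, since a single high library weighs more in a mean. Coverage summed over genes was 1277305.5 in the lowest library and 1885768.9 in the highest, and how many reads stand behind a value is unknown. The targeted gene, Prps2, was between 103 and 143 in WT, between 196 and 283 in Eμ-Myc and between 15.4 and 19.0 in all 4 PRPS2 KO libraries, and Myc was at 279 ± 53.7 (SD, n = 4) in WT, 1896 ± 307 in Eμ-Myc and 2207 ± 936 in PRPS2 KO.

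The PRPS2 KO libraries did not form one cluster. Summed over 13 T cell markers, scaled coverage was 1358, 1545, 105 and 101 in PRPS2 KO libraries 1 to 4, against 1079 to 6408 in WT and 253 to 346 in Eμ-Myc. The 15 myeloid markers summed to 17436, 12221, 3009.9 and 1409.7 in the same 4 libraries, against 8865 to 28621 in WT and 5958 to 17484 in Eμ-Myc, and 9 NK cell markers to 719, 524, 28.0 and 25.8, against 430 to 1731 in WT and 113 to 282 in Eμ-Myc. The 7 proliferation markers ran the other way, at 924, 1227, 2522 and 2501 in PRPS2 KO, 312 to 413 in WT and 1484 to 2033 in Eμ-Myc. The 10 B cell markers summed to between 8606 and 16279.7 in WT and between 8024 and 9873 in Eμ-Myc. In PRPS2 KO libraries 1 to 4 they summed to 8753, 8689, 6815 and 7121. Of these markers, the mature B cell receptors Cr2 and Fcer2a were at 0.105 and 3.47 in PRPS2 KO library 3 and at 0.316 and 2.53 in library 4. No marker of these lists was at 0 in all 4 libraries of any group. In bulk RNA, fewer cells of a type and less RNA per cell cannot be told apart.

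Because several of the 10 genes moved together, the sequence upstream of 3 of them is shown: Adk, which rose most in Eμ-Myc, Hprt, whose values followed those of Adk, and Ampd3, which fell. RefSeq (GRCm38.p6) gave 13 windows for 9 of the 10 genes, and each was searched on both strands for CACGTG, the canonical E-box that MYC binds with MAX, and for its variant CACGCG. The canonical letters were found in 1 window, upstream of an inner start of Ampd3, and the variant in 1 window, at the second start of Adk. Neither was found in the windows of Hprt, Aprt, Ada or Ampd2. Of all 32851 windows of the same length, 7.15% held the canonical E-box and 9.27% the variant; among genes tested in Eμ-Myc against WT, 1169 and 1954 of 9783 with a window had one that held it. Each line gives the 250 bases before the start, 5′ to 3′ along the gene's strand, with the match in capitals: Adk at chr14:21075902-21076151 on the + strand, where the match is the variant read on the other strand and begins 154 bases before the start; Ampd3 at chr7:110772354-110772603 on the + strand, where it begins 78 bases before; and Hprt at chrX:52987828-52988077 on the + strand, with no match. A match is a description of the letters and no match says nothing of MYC binding elsewhere.
Adk: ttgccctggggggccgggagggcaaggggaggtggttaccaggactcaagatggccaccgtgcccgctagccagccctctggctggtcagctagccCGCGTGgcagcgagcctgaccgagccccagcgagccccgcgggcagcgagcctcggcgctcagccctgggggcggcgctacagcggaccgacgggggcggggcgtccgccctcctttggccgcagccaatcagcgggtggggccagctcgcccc
Ampd3: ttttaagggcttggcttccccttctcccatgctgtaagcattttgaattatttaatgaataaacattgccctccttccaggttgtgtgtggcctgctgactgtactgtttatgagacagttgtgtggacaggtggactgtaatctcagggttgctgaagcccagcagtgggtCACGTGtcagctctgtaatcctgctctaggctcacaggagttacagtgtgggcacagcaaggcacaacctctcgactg
Hprt: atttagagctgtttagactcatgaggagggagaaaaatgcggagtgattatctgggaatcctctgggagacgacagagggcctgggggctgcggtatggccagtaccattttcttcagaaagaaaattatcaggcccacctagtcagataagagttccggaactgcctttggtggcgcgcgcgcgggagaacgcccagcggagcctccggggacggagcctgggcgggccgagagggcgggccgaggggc

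In Eμ-Myc against WT, 7 of the 10 genes were called, 5 higher and 2 lower. The background was high: 55.9% of the 12689 genes tested were called in this comparison, 28.7% higher and 27.3% lower, so the count of 7 is not set apart from other genes. The salvage enzymes Hprt, Aprt and Adk, the deaminase Ampd2 and adenosine deaminase were higher in Eμ-Myc, and Ampd3 and the ectonucleotidase Nt5e were lower. The median fold change of the 10 genes was 0.54 against -0.06 for all genes tested. The libraries of the 2 groups did not overlap for 6 of the 10 genes, 4 higher and 2 lower, against 52.4% of all genes tested.

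**Figure D1:**
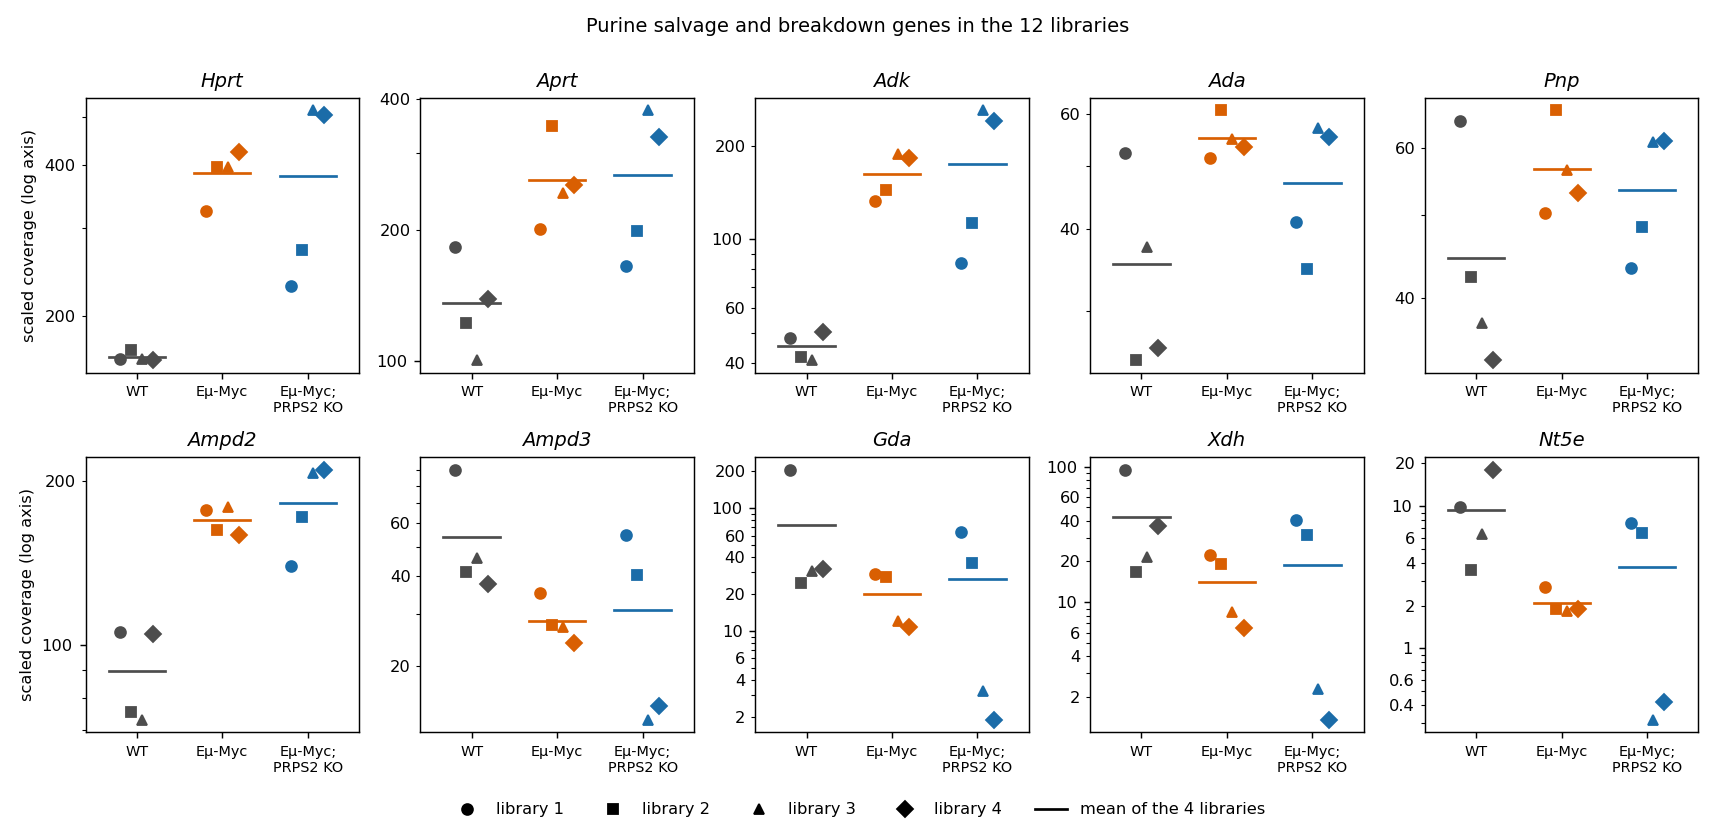
Scaled coverage of the 10 genes (log axes) in each of the 12 libraries; the symbol gives the library number, the colour the group and the line the mean of 4 libraries. Hprt, Aprt, Adk and Ampd2 are higher in every Eμ-Myc library than in any WT library, and PRPS2 KO libraries 1 and 2 lie apart from 3 and 4 in every panel.

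By group mean, the phosphoribosyltransferases were the most abundant of the 10 per base. In WT library 1 alone, Gda lay above both, at 206. Hprt, which returns hypoxanthine and guanine to the nucleotide pool (chrX:52988137-53021659, + strand, mm10), was at 164, 171, 164 and 163 in WT libraries 1 to 4 and at 324, 396, 396 and 424 in Eμ-Myc. PRPS2 KO libraries 1 to 4 were at 229, 271, 515 and 504. WT values were nearly equal, every Eμ-Myc and PRPS2 KO library lay above them, and the PRPS2 KO values ran from below to above the Eμ-Myc range. Hprt was 2.33-fold higher in Eμ-Myc than in WT (log2 fold change 1.21 ± 0.10, adjusted p = 1.84e-05) and 2.29-fold higher in PRPS2 KO than in WT (1.10 ± 0.27, adjusted p = 0.0265). The second call was lost without any one of the 4 WT libraries or without PRPS2 KO library 3 or 4, with adjusted p between 0.0586 and 0.0735.

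Aprt, which salvages adenine (chr8:122574635-122576909, - strand), was at 183, 122, 100.4 and 139 in WT and at 201, 346, 243 and 254 in Eμ-Myc. Its PRPS2 KO values were 165, 199, 377 and 327. The Eμ-Myc libraries all lay above WT, and PRPS2 KO library 1 overlapped the WT range. The gene was 1.91-fold higher in Eμ-Myc (0.94 ± 0.21, adjusted p = 0.00442). Against WT, the difference of 0.92 ± 0.30 in PRPS2 KO missed the threshold (adjusted p = 0.0503). It was called in 7 of the 20 other settings run, among them without PRPS2 KO library 1 (1.12, adjusted p = 0.0157).

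Adenosine kinase, which turns adenosine into AMP, had the largest rise. Adk (chr14:21052574-21448569, + strand) was at 48.1, 41.6, 40.8 and 50.4 in WT and at 133, 144, 189 and 183 in Eμ-Myc. PRPS2 KO libraries had 83.9, 113, 261 and 241. All 8 libraries with the transgene lay above all 4 WT libraries, and the PRPS2 KO libraries spanned 3.11-fold. Adk was 3.59-fold higher in Eμ-Myc than in WT (1.82 ± 0.14, adjusted p = 1.20e-05) and 3.86-fold higher in PRPS2 KO than in WT (1.79 ± 0.36, adjusted p = 0.0163). The second call was lost without WT library 2 or 3, with adjusted p of 0.0541 and 0.0534. In the plot of genes against markers, Adk is set against the 7 proliferation markers. Adk per 1000 units of their sum ran from 89.3 to 145 over the 12 libraries, a 1.62-fold span, while Adk itself spanned 6.39-fold. This ratio was 117 to 145 in WT, 89.3 to 97.0 in Eμ-Myc and 90.8 to 103 in PRPS2 KO. Every WT library thus lay above every library with the transgene, opposite to Adk itself. The proliferation sum was up to 64.5% Pcna. Adk spanned 1.38-fold per unit of Pcna and 1.39-fold per unit of Mcm2, both of DNA replication. Per unit of the other markers it spanned 3.09-fold (Plk1) to 4.41-fold (Ccnb1). The other salvage enzymes narrowed less and Ampd2 widened: per unit of the same sum Hprt spanned 2.76-fold against 3.15-fold alone, Aprt 3.63-fold against 3.76-fold and Ampd2 3.85-fold against 2.87-fold. The part of proliferation in this result was not tested.

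The catabolic enzymes of nucleosides had smaller fold changes than Adk, a difference that was not tested. Ada, which deaminates adenosine and deoxyadenosine (chr2:163726584-163750239, - strand), was at 52.3, 25.2, 37.5 and 26.3 in WT and at 51.4, 60.9, 55.1 and 53.4 in Eμ-Myc. The PRPS2 KO libraries lay at 41.1, 34.7, 57.2 and 55.3. WT library 1 reached the Eμ-Myc range, and PRPS2 KO libraries overlapped both groups. Ada was 1.56-fold higher in Eμ-Myc (0.70 ± 0.22, adjusted p = 0.0213), and the call was lost without WT library 2 or 4 or without Eμ-Myc library 2, with adjusted p between 0.0519 and 0.0551. PRPS2 KO against WT gave 0.44 ± 0.27 (adjusted p = 0.204), which was not called.

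Pnp, which splits inosine and guanosine into base and sugar phosphate (chr14:50931082-50965237, + strand), was at 64.6, 42.3, 37.4 and 33.8 in WT and at 50.4, 66.5, 56.5 and 53.2 in Eμ-Myc. In PRPS2 KO it was at 43.4, 48.4, 61.0 and 61.2. Library 1 was the highest of WT, and without it the 2 groups did not overlap. The difference of 0.38 ± 0.19 between Eμ-Myc and WT missed the threshold (adjusted p = 0.122), and without WT library 1 it was 0.57 and called (adjusted p = 0.00693). The difference of PRPS2 KO from WT was 0.29 ± 0.22 (adjusted p = 0.293), and 0.48 or 0.18 without WT library 1 or 4 (0.0867 and 0.538). Its paralogue Pnp2 was at most 5.47 in any library; how reads common to both genes were assigned is not given in the sources used here, and exons of Pnp overlap those of Gm49342, a protein-coding gene on the same strand that was not analysed here, so the Pnp value is uncertain to that extent.

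The 2 AMP deaminases with clear coverage went in opposite directions. Ampd2 (chr3:108074062-108086651, - strand) was at 106, 75.6, 73.1 and 105 in WT and at 177, 163, 179 and 159 in Eμ-Myc. Under PRPS2 KO it was at 140.0, 172, 207 and 209.8. Every library with the transgene lay above every WT library. Ampd2 was 1.88-fold higher in Eμ-Myc than in WT (0.93 ± 0.14, adjusted p = 5.47e-04) and 2.03-fold higher in PRPS2 KO than in WT (1.02 ± 0.19, adjusted p = 0.0131). Its calls in the 3 comparisons were the same in every other setting run. Its exons overlap those of the antisense gene Gm12500, which was at most 0.211 in any library.

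Ampd3 (chr7:110768206-110812405, + strand), the isoform best known from red cells, was at 90.4, 41.4, 45.8 and 37.5 in WT and at 35.0, 27.4, 27.0 and 23.9 in Eμ-Myc. In PRPS2 KO it was at 54.6, 40.3, 13.3 and 14.8. Each Eμ-Myc library lay below each WT library, and the PRPS2 KO libraries fell on both sides of Eμ-Myc. Ampd3 was 1.9-fold lower in Eμ-Myc than in WT (-0.83 ± 0.26, adjusted p = 0.0232); the call was lost without Eμ-Myc library 2, 3 or 4 and in a fit of all 12 libraries, with adjusted p between 0.0522 and 0.13. The difference of PRPS2 KO from WT, -0.95 ± 0.50, was not called (adjusted p = 0.152), and without PRPS2 KO library 1 it was -1.31 and called (adjusted p = 0.0439). Exons of Ampd3 overlap those of Rnf141 on the opposite strand, which was at 16.6 ± 4.47 in WT, 23.8 ± 6.73 in Eμ-Myc and 25.3 ± 5.66 in PRPS2 KO; whether the coverage used strand is not given in the sources used here. The ratio of Ampd2 to Ampd3, chosen after the values were seen and given without a test, was 1.17 to 2.80 in WT, 5.05 to 6.66 in Eμ-Myc, and 2.56, 4.26, 15.6 and 14.1 in PRPS2 KO.

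**Figure D2:**
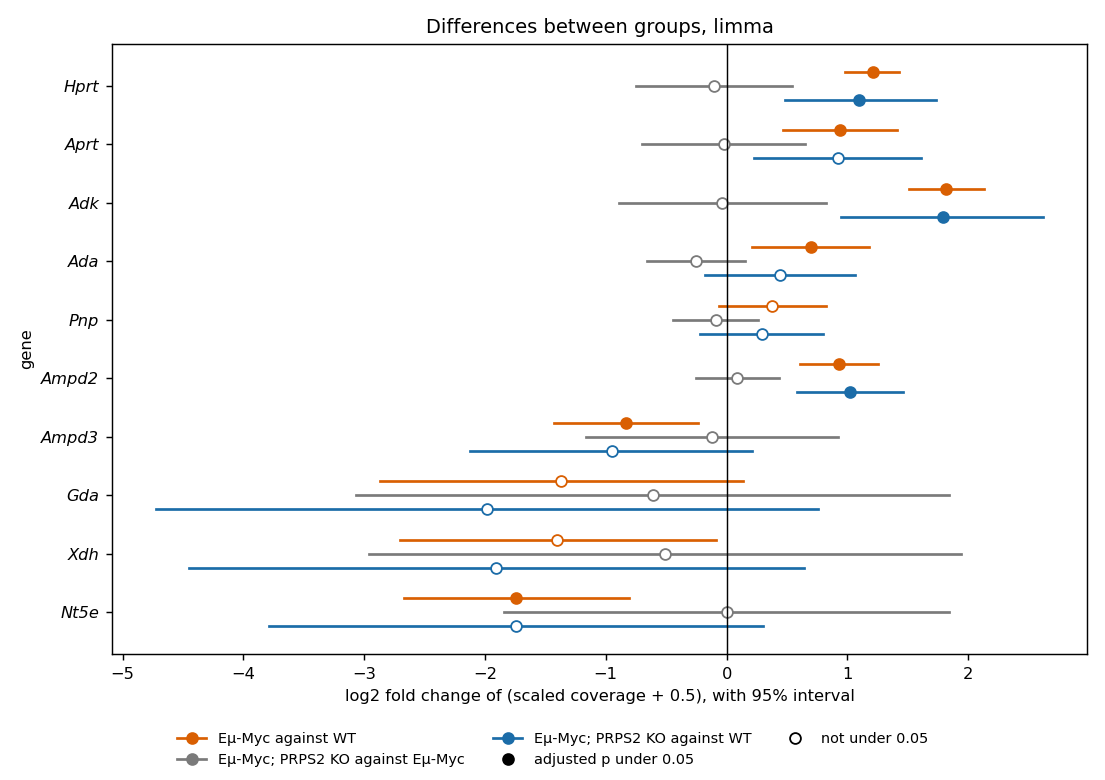
Log2 fold change of scaled coverage + 0.5 (x axis) with its 95% interval for each gene (y axis) in the 3 comparisons by limma; filled points have an adjusted p under 0.05. The intervals of Gda, Xdh and Nt5e are wide wherever PRPS2 KO libraries enter, and each interval of PRPS2 KO against Eμ-Myc includes 0.

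Both enzymes that lead from guanine towards urate were uneven within groups. Gda, guanine deaminase (chr19:21391307-21473445, - strand), was at 206, 24.6, 30.7 and 31.8 in WT and at 29.2, 27.5, 12 and 10.8 in Eμ-Myc. The PRPS2 KO libraries spanned 33.9-fold, at 64.2, 36.1, 3.26 and 1.9. WT library 1 stood far above the others, and the 3 groups overlapped. The difference between Eμ-Myc and WT was -1.37 ± 0.66 (adjusted p = 0.107), and between PRPS2 KO and WT -1.98 ± 1.19 (adjusted p = 0.196). Neither was called. Without WT library 1 they were -0.66 and -1.28 (adjusted p = 0.153 and 0.41), and the second was -1.20 without PRPS2 KO library 4 (0.435).

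Xdh, xanthine dehydrogenase, which carries out the last oxidations to urate (chr17:73883895-73950196, - strand), was at 94.7, 16.7, 21.7 and 36.5 in WT and at 22.5, 19.2, 8.45 and 6.44 in Eμ-Myc. PRPS2 KO values were 40.1, 31.3, 2.31 and 1.37. It had the same high and low libraries as Gda, and the groups overlapped. In Eμ-Myc against WT it was -1.40 ± 0.57, with a 95% interval of -2.70 to -0.09 but an adjusted p of 0.0647. It was called with total coverage scaling (adjusted p = 0.0393) and without WT library 2 (0.0389) or Eμ-Myc library 1 (0.0495). Without WT library 1 it was smaller, at -0.90 (adjusted p = 0.125), and without Eμ-Myc library 3 or 4 it was -1.22 or -1.10 (0.153 and 0.168). Between PRPS2 KO and WT the difference was -1.91 ± 1.11 (adjusted p = 0.183), and -1.15 without PRPS2 KO library 4 (0.413).

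Gda and Xdh were highest in the library with the highest myeloid marker sum and lowest in the one with the lowest. Within Eμ-Myc they were a little higher in library 1 than in library 2, although the sum was 10788 in library 1 and 17484 in library 2. Their Pearson correlation over the 12 libraries was 0.98, and 0.98 again for deviations from the group means; libraries share depth and cell makeup, so this is a description. Per 1000 units of Csf3r, a neutrophil receptor picked from the list after its values were seen, Gda ran from 70.7 to 176 over the 12 libraries, a 2.49-fold span, while Gda itself spanned 108-fold. Xdh per 1000 units of Csf3r spanned 2.70-fold and Xdh itself 69.2-fold. Csf3r gave the narrowest span of the 15 markers for both, and the widest was 35.2-fold for Gda, against Cd68, and 25.0-fold for Xdh, against Mpo. The granule genes Mpo and Elane had higher means in Eμ-Myc than in WT (73.7 against 44.1 and 70.2 against 42.3), unlike Gda and Xdh. Set against the sum of all 15 myeloid markers, the spans were 6.63-fold for Gda and 4.31-fold for Xdh. Ampd3 was nearly as close to both, with a correlation of 0.97 with Gda and 0.94 with Xdh (0.97 and 0.93 for deviations from the group means). Ampd3 spanned 6.82-fold alone, 6.73-fold per unit of the myeloid sum, and from 2.49-fold (Cd68) to 33.4-fold (Elane) per unit of single markers. The part of myeloid RNA in the values of Gda, Xdh and Ampd3 was not tested.

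Nt5e, the gene of CD73 (chr9:88327197-88372092, + strand), was the least abundant of the 10 in every group. It was at 9.86, 3.58, 6.33 and 18.0 in WT and at 2.72, 1.89, 1.83 and 1.89 in Eμ-Myc. Among PRPS2 KO libraries it was at 7.59, 6.52, 0.316 and 0.421. Each Eμ-Myc library lay below each WT library, while PRPS2 KO libraries 1 and 2 lay within the WT range and 3 and 4 below every other library. By group mean, Nt5e was 4.53-fold lower in Eμ-Myc than in WT, a ratio raised by the 18.0 of WT library 4. Its log2 fold change was -1.74 ± 0.41 (limma, adjusted p = 0.00602), a call that was lost in a fit of all 12 libraries (adjusted p = 0.0772). Its difference between PRPS2 KO and WT was -1.74 ± 0.89 (adjusted p = 0.14). Nt5e per 1000 units of the T cell marker sum ran from 2.81 to 7.88, a 2.81-fold span, while Nt5e itself spanned 57.1-fold. By library this ratio was 4.53, 3.31, 4.43 and 2.81 in WT and 7.88, 6.4, 5.78 and 7.47 in Eμ-Myc. Every Eμ-Myc library thus lay above every WT library, opposite to Nt5e itself. The PRPS2 KO libraries had ratios of 5.59, 4.22, 2.99 and 4.15. Against single T cell markers the span ran from 2.47-fold (Cd8a) to 33.9-fold (Cd8b1), and in 1 library Lck made up 43.9% of the sum. Per 1000 units of the NK cell sum it ran from 6.71 to 16.8, a 2.5-fold span, and against the 9 single NK cell markers from 1.94-fold (Ncr1) to 3.79-fold (Gzmb). The part of T cell and NK cell RNA in this result was not tested.

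**Figure D3:**
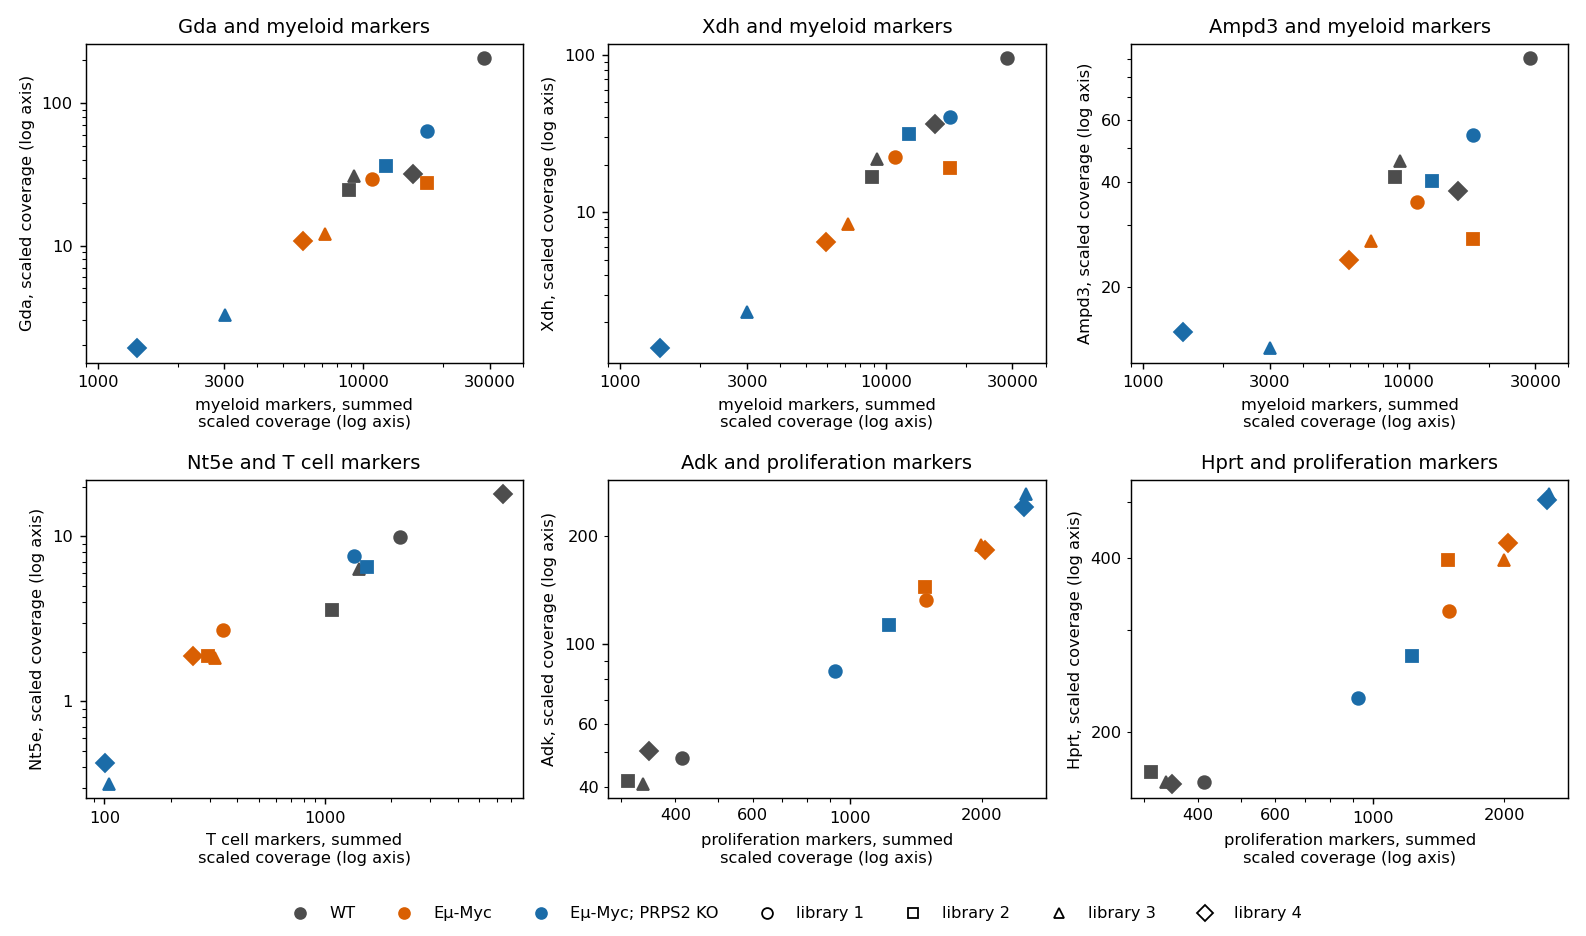
Scaled coverage of 6 genes (y axes, log) against the summed scaled coverage of a marker list (x axes, log) in the 12 libraries; colour gives the group and shape the library number. Gda and Xdh are highest in the library with the highest myeloid sum and Nt5e in the one with the highest T cell sum, with PRPS2 KO libraries 3 and 4 at the low end; Adk and Hprt are high where proliferation markers are.

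In Eμ-Myc; PRPS2 KO against Eμ-Myc, which compares mice with and without PRPS2 that both carry the transgene, 0 of the 10 genes were called by limma. Of the 12518 genes tested, 0.00799% were called, which is Prps2 alone. At an unadjusted p under 0.05 the counts were 0 of the 10 genes and 118 genes in all, or 0.943%. The libraries of the 2 groups were apart for 0 of the 10 genes, against 1.53% of all genes tested. Missing calls do not show equal levels. The 95% interval of the log2 fold change ran from -0.75 to 0.54 for Hprt, -0.70 to 0.65 for Aprt, -0.89 to 0.82 for Adk, -0.66 to 0.15 for Ada and -0.44 to 0.26 for Pnp. It ran from -0.25 to 0.43 for Ampd2 and -1.16 to 0.92 for Ampd3. For Gda, Xdh and Nt5e it ran from -3.07 to 1.84, -2.96 to 1.94 and -1.84 to 1.84, so changes of several fold in either direction remain within it. The tightest interval was that of Ampd2, and the median fold change of the 10 genes was -0.10 against -0.04 for all genes tested.

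These values rest on 4 PRPS2 KO libraries that differ among themselves; those of Hprt, Aprt, Adk, Ampd2, Ampd3, Gda, Xdh and Nt5e lie on both sides of the Eμ-Myc range, and those of Ada and Pnp within or below it. Without PRPS2 KO libraries 1 and 2, the log2 fold change against Eμ-Myc was 0.64 for Adk, 0.41 for Hprt, -0.97 for Ampd3, -2.62 for Gda, -2.50 for Xdh and -1.56 for Nt5e, and 5 of the 10 genes were called, against 26.0% of all genes tested in that setting. Without libraries 3 and 4 it was -0.72 for Adk, -0.62 for Hprt, 0.73 for Ampd3, 1.40 for Gda, 1.47 for Xdh and 1.56 for Nt5e, and 1 was called (Nt5e), against 3.57%. Each of these 6 genes thus had opposite signs in the 2 settings. The libraries were left out for their marker levels, with which the genes vary, so these counts describe libraries and are no test of PRPS2.

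In Eμ-Myc; PRPS2 KO against WT, 3 of the 10 genes were called, all higher (Hprt, Adk and Ampd2). Here 31.0% of the 12692 genes tested were called, 19.9% higher and 11.0% lower, so 3 of 10 is near the background. The same 3 were the members whose libraries did not overlap, against 38.8% of all genes tested. This comparison uses the same 4 WT libraries as Eμ-Myc against WT, so the calls that both share are not independent. The median of the 10 genes was 0.37 against -0.08 for all genes tested. Leaving out 1 library gave between 1 and 5 called members, and the share of all genes called moved with them. It was 1 of 10 without WT library 2 or 3, where 6.33% and 6.68% of all genes tested were called, and 5 without PRPS2 KO library 1, where 54.4% were. Without PRPS2 KO libraries 1 and 2, 8 members and 70.5% of all genes were called, and without 3 and 4, 3 members and 11.9%.

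By group mean, the order of levels per base changed at the middle of the list, but for Adk and Gda this rested on WT library 1. Hprt had the highest mean and Aprt the next in all 3 groups, with library ranges that overlapped each other. Adk was at rank 6 in WT at 45.2 ± 4.74 (SD) and at rank 4 in Eμ-Myc at 162 ± 27.7, where its range overlapped that of Ampd2 and lay apart from that of Pnp below. Gda was at rank 4 in WT at 73.2 ± 88.4, where library 1 alone lay above the mean, and at rank 8 in Eμ-Myc at 19.9 ± 9.83. Ampd3, at rank 5 in WT, was at 90.4 in library 1 and at 41.4, 45.8 and 37.5 in libraries 2 to 4. Without library 1, the WT means of Gda and Ampd3 lie below that of Adk. In WT the ranges of neighbours in the order overlapped down to Ada at rank 9, and Nt5e lay apart below it. The ratio of Adk to Ada, chosen after the values were seen, was 0.921 to 1.91 in WT, 2.37 to 3.43 in Eμ-Myc and 2.04 to 4.56 in PRPS2 KO.

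Within the 10 genes, Hprt and Adk varied most alike among the enzymes that rose (r = 0.99 over 12 libraries, 0.96 for deviations from group means). Hprt ran against Nt5e (-0.89 in both), while Ada and Pnp followed each other (0.86 and 0.80). Among the other genes tested, those most alike to Adk by Pearson r over 12 libraries were Cct8, a subunit of the chaperonin CCT, Hmgb1, a chromatin protein, and Nudcd2, at 0.998, 0.997 and 0.997. The most alike to Nt5e were Ipcef1, Hid1 and Crtam, at 0.994, 0.992 and 0.99. Crtam, a receptor of activated T and NK cells, was at 21.4 ± 17.3 (SD) in WT, 3.14 ± 0.463 in Eμ-Myc and 6.50 ± 7.21 in PRPS2 KO.

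Neighbouring steps of purine metabolism were read from 5 lists with 53 genes in the files. Their counts stand against 55.9% of all genes called in Eμ-Myc against WT (28.7% higher, 27.3% lower) and 31.0% in PRPS2 KO against WT (19.9% higher, 11.0% lower). Among genes that interconvert IMP, AMP and GMP, 5 of 9 tested were higher and 0 lower in Eμ-Myc against WT. Impdh2, which commits IMP to GMP, rose by 1.64 ± 0.10 (adjusted p = 5.01e-06), Itpa, which clears ITP, by 1.15 ± 0.13 and Gmps, GMP synthetase, by 1.05 ± 0.12. PRPS2 KO against WT also had 5 of 9 higher and 0 lower, and the same 3 genes were at 1.6 ± 0.26, 1.01 ± 0.33 and 1.00 ± 0.24. The median of this list was 0.78 in the first comparison and 0.73 in the second, against -0.06 and -0.08 for all genes tested.

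Of 5 intracellular nucleotidases tested, 2 were higher in Eμ-Myc against WT (Nt5c2 0.74 ± 0.11, Nt5c3b 0.54 ± 0.17) and 1 in PRPS2 KO against WT (Nt5c2 0.74 ± 0.19). Of 7 nucleoside kinases and further salvage enzymes, 3 were higher and 1 lower in Eμ-Myc. Ahcy, which hydrolyses S-adenosylhomocysteine and so releases adenosine, rose by 2.08 ± 0.12 (adjusted p = 4.04e-06), Dck, deoxycytidine kinase, by 0.90 ± 0.18, and Mtap, which feeds adenine to Aprt, by 0.64 ± 0.11. Against WT, PRPS2 KO had 2 higher (Ahcy 2.04 ± 0.38, Dck 0.72 ± 0.20) and 1 lower (Dguok, mitochondrial deoxyguanosine kinase, -0.51 ± 0.14). Of 5 genes of urate steps and the molybdenum cofactor that Xdh needs, Gphn, a cofactor synthesis gene, was the 1 called, at 0.35 ± 0.13 and 0.50 ± 0.12 in the 2 comparisons. Uox, Urah, Urad and Allc, which act beyond urate, were listed at 0 in all 12 libraries.

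The list of extracellular nucleotide breakdown, adenosine receptors and nucleoside transport went both ways, with 4 higher and 4 lower of 13 tested in Eμ-Myc against WT and 4 higher and 2 lower in PRPS2 KO against WT. Alpl, tissue-nonspecific alkaline phosphatase, which like CD73 can release adenosine from AMP outside the cell, was at 7.62, 13, 14.6 and 6.38 in WT and at 173, 188, 196 and 212 in Eμ-Myc. The PRPS2 KO libraries were at 96.6, 138, 300.2 and 292. Every library with the transgene lay above every WT library. Alpl rose by 4.22 ± 0.24 in Eμ-Myc (adjusted p = 4.16e-06) and by 4.17 ± 0.43 in PRPS2 KO (adjusted p = 0.00731). The nucleobase transporter Slc43a3 rose by 2.20 ± 0.17 and 2.03 ± 0.28, and Slc29a1, the equilibrative nucleoside transporter ENT1, by 1.9 ± 0.10 and 1.87 ± 0.29. Between PRPS2 KO and Eμ-Myc, 0 genes of the 5 lists were called by limma, and 0 of them had an unadjusted p under 0.05.

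**Figure D4:**
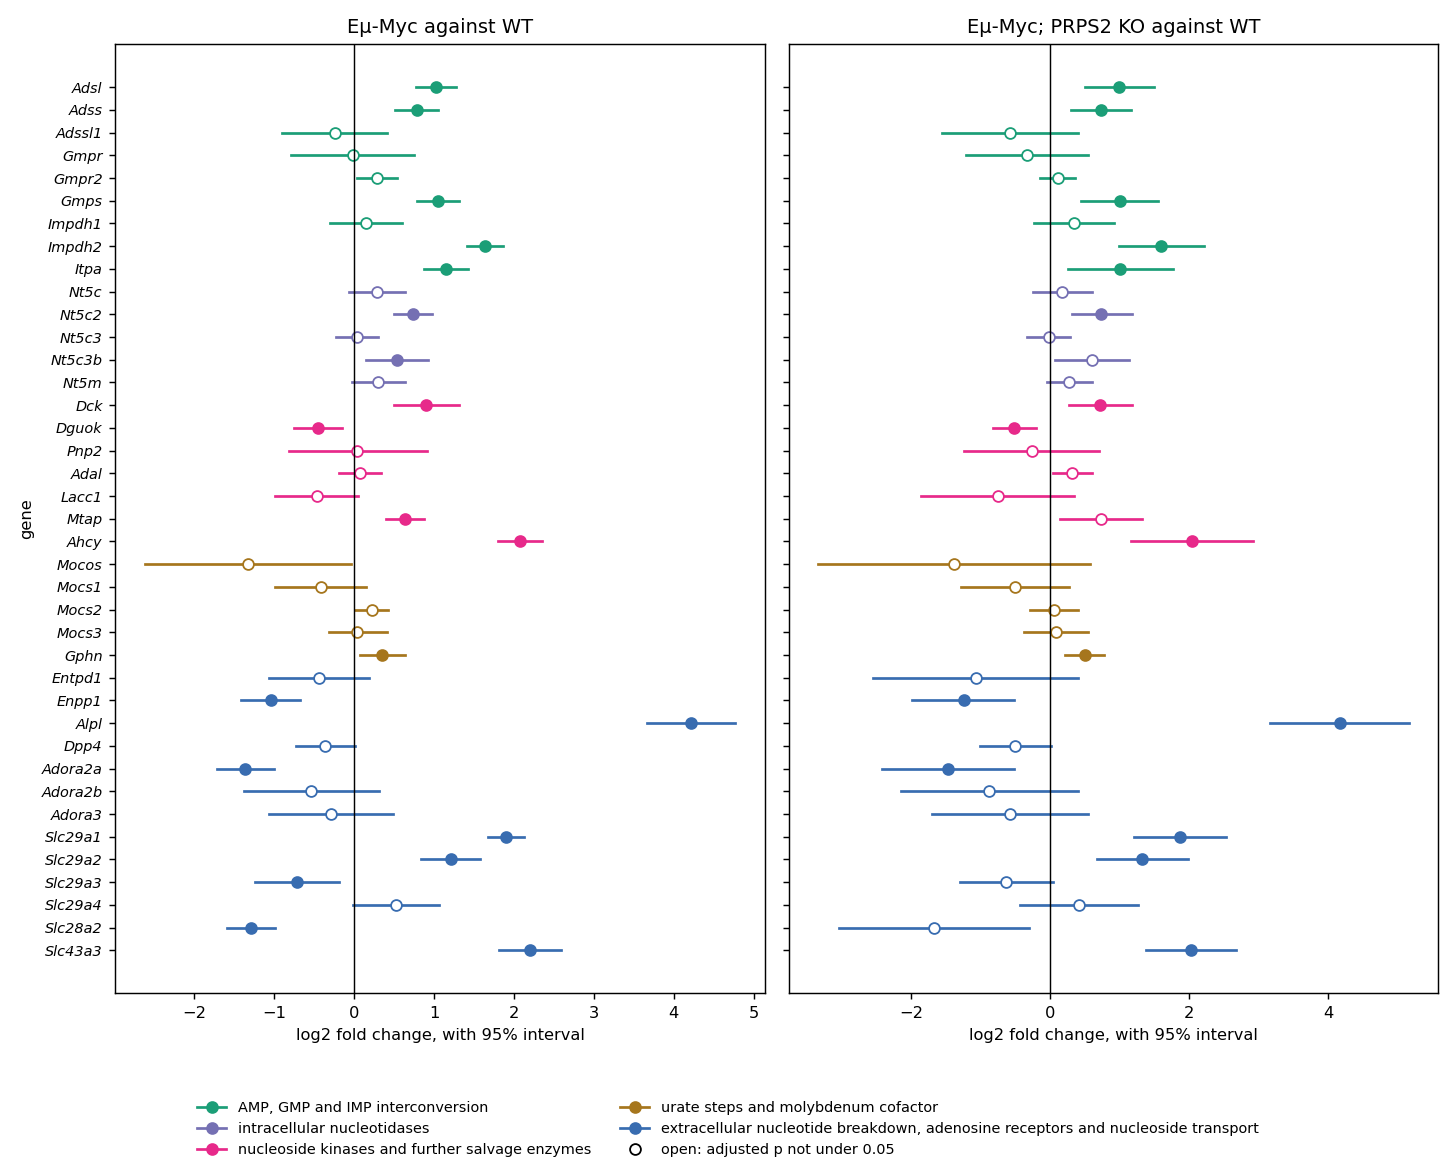
Log2 fold changes with 95% intervals (x axes) of the tested genes of 5 related lists (y axis), against WT in Eμ-Myc (left) and in Eμ-Myc; PRPS2 KO (right); colours give the lists and open points an adjusted p of 0.05 or more. Alpl at 4.22 and 4.17 lies farthest right in both panels, and most intervals are wider on the right.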

How the data were processed

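B lymphocytes were isolated from spleens, RNA was extracted with TRIzol and PureLink, polyadenylated RNA was selected and directional NEBNext Ultra II libraries were made, per the labels' protocols. For each library the authors deposited the coverage of each gene to 1 decimal, a signal of which 91.6% of values above 0 were not whole. The submitters' processing notes name mm10, DESeq and R 4.3.3 without their roles; the aligner, the counting step, its use of strand and the annotation are not given in the sources used here. Since most values were not whole, they were not taken as counts, and the precision of each value comes from the spread between libraries.

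Scaling factors were unweighted trimmed means of log ratios (30% of ratios and 5% of means trimmed), taken from the 10992 genes with coverage of at least 1 in all 12 libraries, a set chosen after the data were seen. A gene entered a comparison when 4 or more of its 8 libraries reached a scaled coverage of 1, and all 10 members did in each of the 3 comparisons. limma 3.58.1 in R 4.3.3 was fitted to log2(scaled coverage + 0.5) with a trended, robust prior, two-sided, and genes were called at an adjusted p under 0.05 (Benjamini-Hochberg, across every gene in the fit). The fit was also run on simulated data with known changes, drawn gene by gene with the same spread in both groups. Such data hold no shift shared by a library, so they cannot test the scaling or the split among PRPS2 KO libraries. Tables and figures used Python 3.11.15, pandas 2.3.3 and matplotlib 3.10.9.

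The members and lists were chosen with earlier results of these data known. Named were all 10 members, up to 3 called genes per related list with the largest change, the 3 genes most alike to the members with the largest rise and fall, and Prps2 and Myc. Gene positions are from GENCODE M21 on mm10. Alternatives changed scaling, pseudocount, filter, prior, fit and libraries. Same-numbered libraries of PRPS2 KO and Eμ-Myc deviated together (r from 0.187 to 0.639 in the 4 pairs), but libraries of other numbers reached 0.588 and the labels state no pairing. All printed fold changes are from fits without a replicate block; with it, PRPS2 KO against Eμ-Myc again gave 0 of the 10 members and 1 gene in all. In the other comparisons not every same-numbered pair deviated together, with r down to -0.0989 for Eμ-Myc and WT and to -0.41 for PRPS2 KO and WT.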

Additional observations from a re-analysis of the deposited data

Results flagged for a closer look

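Among 57 groups of 4 libraries, over the 10 genes and 9 marker sums in each genotype, 6 held a library far from the other 3; chance gives about 1 in 20 groups. Hprt was 171 in WT library 2, although the WT range was narrow. Ampd3 at 90.4 and Gda at 206 were both high in WT library 1, the library with the highest myeloid marker sum. Nt5e was highest of Eμ-Myc in library 1, at 2.72. The erythroid markers summed to 873 in WT library 4, and the plasma cell markers to 1129.7 in PRPS2 KO library 2.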

How the results depend on the processing

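All limits below cover only these settings. Read depth is unknown, so no counting error can be given. Eμ-Myc against WT called between 5596 and 7355 genes and between 5 and 9 of the 10 in the 18 other settings, and no member changed direction. Higher and lower calls were 3638 and 3461, but 3057 and 4227 with total coverage scaling and 3308 and 2288 with all 12 libraries in one fit. Total coverage scaling moved the median of all genes there from -0.06 to -0.19 and in PRPS2 KO against WT from -0.08 to -0.17. Nt5e had no value under the filter of at least 5 in Eμ-Myc against WT and in PRPS2 KO against Eμ-Myc.

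PRPS2 KO against WT called 3930 genes, but 6105 with all 12 libraries in one fit. Leaving out 1 library gave 796 to 6786 genes and 1 to 5 of the 10: 1184, 796, 839 and 1714 genes without WT library 1, 2, 3 and 4, and 6786, 907 and 862 without PRPS2 KO library 1, 3 and 4. The cause was not tested.

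PRPS2 KO against Eμ-Myc had no member called with any single library left out. Signs turned for Aprt (0.01 with median-of-ratios scaling, 0.02 with total coverage), Adk (0.00 with total coverage) and Nt5e (0.01, 0.05 and 0.19 with median-of-ratios, total coverage and a pseudocount of 2). With 1 library left out, fold changes ran from -0.28 to 0.11 for Hprt, -0.21 to 0.18 for Aprt, -0.28 to 0.26 for Adk, -0.36 to -0.12 for Ada, -0.16 to 0.01 for Pnp, 0.01 to 0.21 for Ampd2, -0.48 to 0.19 for Ampd3, -1.42 to 0.16 for Gda, -1.23 to 0.25 for Xdh and -0.56 to 0.55 for Nt5e. The cause was not tested.

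Settings without a pair of PRPS2 KO libraries were chosen after seeing the data. Without 1 and 2, 3158 genes and 5 of the 10 were called against Eμ-Myc, and 8674 and 8 against WT; without 3 and 4 these were 442 and 1, and 1486 and 3. Against Eμ-Myc, signs turned without 1 and 2 for Hprt (0.41), Aprt (0.46), Adk (0.64), Ada (0.03) and Pnp (0.12). Without 3 and 4 they turned for Ampd2 (-0.12), Ampd3 (0.73), Gda (1.40), Xdh (1.47) and Nt5e (1.56), and against WT for Gda (0.03) and Xdh (0.08). The cause was not tested.

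With the replicate number as a block, the call of PRPS2 KO against WT fell to 1963 genes. Gda and Xdh were called in Eμ-Myc against WT under the block (adjusted p = 0.0438 and 0.0347, limma), and it changed no other member's call. Same-numbered libraries had r from -0.0989 to 0.25 in Eμ-Myc and WT and from -0.41 to 0.391 in PRPS2 KO and WT. In the first, 2 of 4 libraries of each group were most alike to their own number, in the second 1 of 4. For PRPS2 KO and Eμ-Myc this count was also 2 of 4.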

Other observations

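Genes chosen after their values were seen gave these levels, without a test of their relation to the members. Mocos, whose product sulfurates the molybdenum cofactor that xanthine dehydrogenase needs, was at 23.5, 4.05, 5.46 and 6.72 in WT, at 4.23, 5.49, 1.93 and 1.22 in Eμ-Myc and at 9.17, 6.62, 0.947 and 0.527 in PRPS2 KO. It was highest in WT library 1 and lowest in PRPS2 KO library 4, as Xdh was, and its difference of -1.33 ± 0.57 in Eμ-Myc against WT missed the threshold (limma, adjusted p = 0.0741). Without the high value of WT library 1, that difference would be smaller. Adora2a, an adenosine receptor, was at 66.4 ± 14.6 (SD) in WT and 25.2 ± 2.73 in Eμ-Myc, and fell by 1.36 ± 0.16 on the log2 scale (limma, adjusted p = 1.25e-04), with every Eμ-Myc library below every WT library. Slc28a2, a concentrative transporter of purine nucleosides, fell by 1.29 ± 0.13 in the same comparison (limma, adjusted p = 5.63e-05), while the equilibrative transporter Slc29a2, at 2.65 in WT and 6.75 in Eμ-Myc on average, rose by 1.21 ± 0.16 (limma, adjusted p = 2.86e-04). In PRPS2 KO against WT, Slc28a2 missed the threshold (-1.66 ± 0.59, limma, adjusted p = 0.0614), at 149.9, 126, 24.6 and 28.6 in PRPS2 KO libraries 1 to 4. Adora2a and Slc29a2 were called there (-1.47 ± 0.42 and 1.33 ± 0.28, limma, adjusted p = 0.036 and 0.0187).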
